A study of Homo sapiens with 10 samples.

Results

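The 44 genes described here are the human collagen chain genes, all genes whose name has the form COL, a type number, A and a chain number, among the 23609 gene names of 2 deposited expression tables. Each table held 50 rows with such names, because COL11A2 stood on 6 further rows placed on alternative copies of chromosome 6. Those 6 rows were dropped and entered no result, and the COL11A2 row on chromosome 6 itself was used. The genes were sorted into classes by the structure their proteins form: 11 fibrillar, 6 basement membrane, 5 beaded filament (type VI) and 10 FACIT genes (fibril-associated collagens with interrupted triple helices), 3 short-chain network genes, 1 anchoring fibril gene, 4 transmembrane genes, 2 multiplexins and 2 others.

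The study sequenced poly(A) RNA of SH-SY5Y, an established human neuroblastoma line grown in DMEM/F12 with fetal bovine serum, 72 h after transfection. Its 10 libraries fell into 4 groups: 3 libraries of cells given 100 nM of an siRNA against LncND, a long non-coding RNA, 3 given a scrambled siRNA, 2 given miR-143-3p mimic at 50 nM (a synthetic RNA duplex loaded like the natural microRNA), and 2 with a scrambled miRNA. The labels give no dose for the scrambled RNAs and no change to the genome of the cells, and all groups are the same line. The siRNA and the miRNA libraries stood in separate tables of FPKM (a level corrected for transcript length and for the depth of its library), so levels were compared within a table only.

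A collagen is a trimer of alpha chains wound into a triple helix. Chains are hydroxylated and folded in the endoplasmic reticulum, secreted, trimmed and crosslinked outside the cell, and several types form only when particular chains meet, such as COL4A1 with COL4A2 in basement membranes or COL6A1 with COL6A2 and one further chain in beaded filaments. Neuroblastoma tissue holds a collagen-rich stroma made largely by other cells.

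Noradrenergic neuroblast markers, the type of cell the line is known for, summed to between 2119 and 3500 FPKM per library. Of the 14, 13 were above 1 FPKM in all 4 group means. The exception was TH, at 0.105 FPKM with scrambled siRNA, 0.0726 with LncND siRNA, 0.325 with scrambled miRNA and 0.147 with the mimic. Of 16 markers of fibroblasts, pericytes and smooth muscle, the cells that make most collagen in tissue, 8 were tested, and PRRX1 was listed at the lowest value of 0.001 FPKM in all libraries. Their sums were 1432 to 1502 FPKM with scrambled siRNA, 1398 to 1428 with LncND siRNA, 1578 to 1630 with scrambled miRNA and 2027 to 2181 with the mimic. RGS5 made up most of these sums, with group means of 1220, 1149, 1355 and 1910 FPKM in the same order. With LncND siRNA 4 of the 8 rose and 3 fell (36.6% and 30.3% of all genes tested), and with the mimic 1 rose and 5 fell (24.6% and 38.6%). ACTA2 (smooth muscle actin) went from 6.99 to 28.0 FPKM with the siRNA and from 10.9 to 4.73 with the mimic, and THY1 from 39.5 to 67.4 and from 53.3 to 37.6. PDGFRB, a pericyte receptor, went from 18.0 to 12.4 and from 22.3 to 7.30 FPKM. Schwann and glial markers summed to 3.64 to 3.79 FPKM with scrambled siRNA and 6.74 to 7.08 with LncND siRNA, and to 4.48 to 5.33 and 3.53 to 3.61 in the miRNA groups, with S100B the 1 gene tested. Epithelial markers summed to 1.19 to 1.40 and 3.52 to 4.07 FPKM in the siRNA groups, where CLDN4, above 1 FPKM only with LncND siRNA, was the 1 gene tested, and to 1.85 to 2.04 and 1.28 to 1.70 in the miRNA groups. The part of these markers in the collagen results was not tested, and in bulk RNA fewer cells of a kind and less RNA per cell cannot be told apart. LncND siRNA replicate 1 stood apart in 1 gene, the Y RNA gene RNY4, listed at 1224670 FPKM there and at 0.001 in the other 9 libraries. The level of LncND was not analysed here, so the knockdown has no check of its own.

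The sequences that bear on the mimic come first, because a microRNA acts on transcripts that pair with its seed. Human miR-143-3p, from RefSeq (GRCh38.p14, chr5:149428978-149428998, plus strand), is shown with its seed, bases 2 to 8, in capitals. The lines under it give stretches of 30 bases around matches to that seed in the 3′ UTRs of 5 collagen transcripts that were tested with the mimic. They were read from the GENCODE 29 transcripts (GRCh38) and run in the sense of the transcript, with the match in capitals.
hsa-miR-143-3p: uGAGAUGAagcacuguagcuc
COL1A1: ttcctttgcatTCATCTCtcaaacttagtt
COL5A1: gactgtcacctTCATCTCttcaaaagaaaa
COL9A2: gtatttaaacaTCATCTCccttctctttct
COL18A1: aggtgctgactTCATCTCccacctagcagc
COL4A2: ctgtttttaatcCATCTCAgtagagttgaa

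The first 4 sites are TCATCTC, the reverse complement of seed bases 2 to 8, and the COL4A2 site is CATCTCA, the reverse complement of bases 2 to 7 followed by an A. Their places in GRCh38 are chr17:50185332-50185361 (minus strand) for COL1A1, chr9:134844290-134844319 (plus) for COL5A1, chr1:40300605-40300634 (minus) for COL9A2, chr21:45512755-45512784 (plus) for COL18A1 and chr13:110513115-110513144 (plus) for COL4A2, all in the last part of the transcript behind the stop codon. A further CATCTCA stood in COL5A1, COL9A2 and COL18A1. The longer match TCATCTC, alone or followed by an A, stood in the 3′ UTR of 11 of the 44 collagen genes (25.0%), against 11.1% of 19102 protein-coding genes. The collagen 3′ UTRs were longer, with a median of 1115 bases against 808, and the part of length in the higher share was not tested. A match is a description of the letters and not a shown target.

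SH-SY5Y cells transcribed a minority of the collagen family at appreciable levels. The mean over the 6 siRNA libraries was above 1 FPKM for 15 of 44 genes (34.1%), against 53.8% of all 23416 genes kept in that table. Of the 44, 14 were above 1 FPKM in the miRNA table (31.8%), against 53.6% of 23426 genes. The 14 were shared by both tables, and COL6A6 was the 1 added in the siRNA table. By group mean, 13 collagens were above 1 FPKM with scrambled siRNA and 15 with LncND siRNA, and 14 with scrambled miRNA and 12 with the mimic.

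By table mean, the same 6 genes exceeded 10 FPKM in both tables: COL3A1, COL4A1, COL4A2, COL6A1, COL6A2 and COL18A1. In the siRNA table COL18A1 did so only through the treated group, averaging 8.67 FPKM with scrambled siRNA and 18.7 with LncND siRNA. The abundant set thus held 1 fibrillar chain, the ubiquitous basement membrane pair, the type VI pair, and the multiplexin whose C-terminal fragment is endostatin. Together they made 87.3% to 87.9% of the summed collagen FPKM with scrambled siRNA and 84.7% to 84.9% with LncND siRNA, and 85.9% with scrambled miRNA and 93.2% to 93.5% with the mimic. Classes differed in how many members passed 1 FPKM in either table. That level was passed by 4 of 11 fibrillar, 2 of 6 basement membrane, 3 of 5 beaded filament and 3 of 10 FACIT genes, by the anchoring fibril gene COL7A1, by 1 of 2 multiplexins and by 1 of 2 others. None of the 4 transmembrane and none of the 3 short-chain network genes had a table mean above it.

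**Figure D1:**
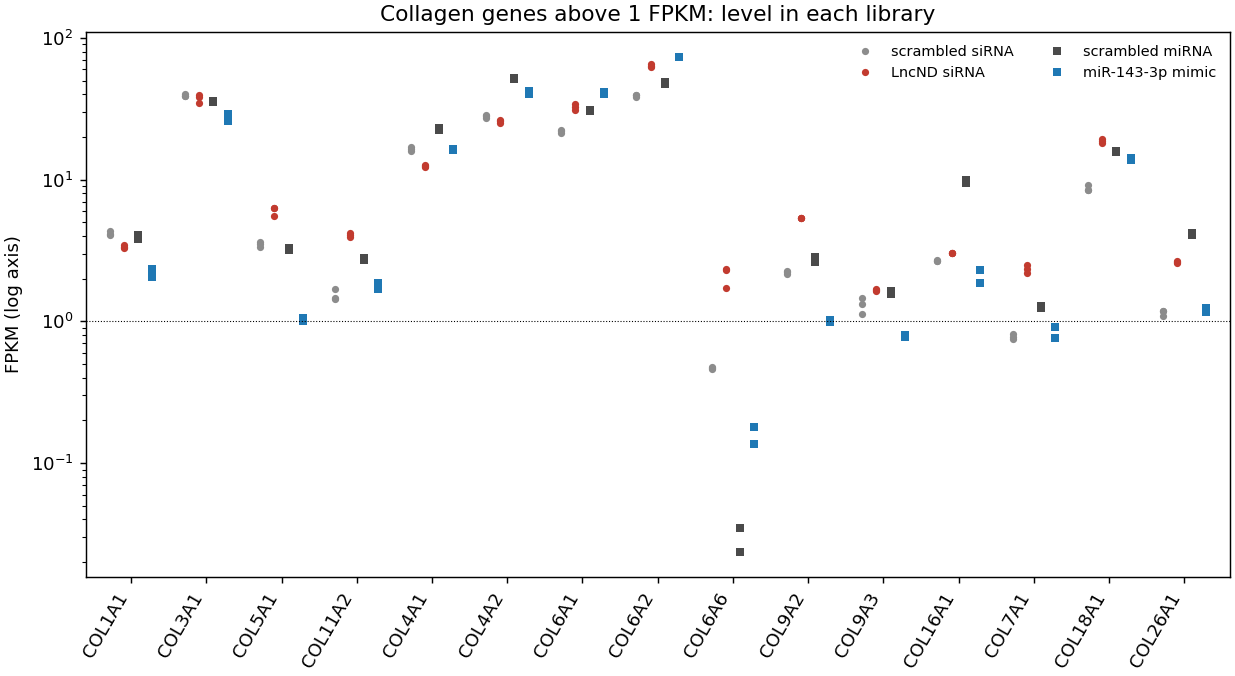
FPKM (log axis) of the 15 collagen genes with a mean above 1 FPKM in either table, one point for each of the 10 libraries, circles for siRNA and squares for miRNA libraries, coloured by group; the dotted line marks 1 FPKM. COL3A1, COL4A1, COL4A2, COL6A1 and COL6A2 lie above 10 FPKM in each library, and COL6A6 lies below 1 FPKM in all groups but LncND siRNA.

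The genes nearest to the level on its upper side were COL6A6 (table mean 1.29 FPKM), COL9A3 (1.48) and COL7A1 (1.56) in the siRNA table, and COL7A1 (1.05) and COL9A3 (1.20) in the miRNA table. Nearest below it were COL9A1 (0.679), COL5A2 (0.606) and COL23A1 (0.591) in the siRNA table, and COL9A1 (0.701), COL5A2 (0.676) and COL23A1 (0.627) in the miRNA table. At the far end, 22 genes were below 0.1 FPKM in both siRNA group means and 20 in both miRNA group means. These included the minor basement membrane chains COL4A3 to COL4A6, which stayed at or below 0.0175 FPKM in each library, and the cartilage chains COL10A1 (at most 0.0471) and COL11A1 (at most 0.0237). The other classical type VI chain, COL6A3, lay between 0.00692 and 0.0713 FPKM over the 10 libraries, and the transmembrane COL13A1 between 0.0224 and 0.147. COL5A3, COL6A5, COL8A1, COL12A1, COL14A1, COL15A1, COL20A1, COL21A1, COL22A1, COL24A1, COL25A1 and COL28A1 lay between 0.001 and 0.0780 FPKM. A value of 0.001, the lowest listed, stood in at least 1 library for 12 collagens of the siRNA table and 16 of the miRNA table, and in all libraries of a table for none.

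For the siRNA, the question is how the collagens stood in cells given LncND siRNA against cells given the scrambled siRNA. Most collagens above the filter were higher: COL18A1, COL11A2, COL9A2, COL7A1 and COL6A6 were 2.16 to 4.50 times their control means, and the type VI pair COL6A1 and COL6A2 were 1.48 and 1.64 times theirs. The basement membrane pair COL4A1 and COL4A2 and the type I chain COL1A1 were lower, with control means of 1.08 to 1.32 times the treated means. With limma on log2(FPKM + 1), run on genes with a table mean of at least 1 FPKM, calls were made at an adjusted p under 0.05. The added 1 narrows ratios at a few FPKM, so log2 sizes do not rank fold changes between collagens. COL7A1 rose by 0.91 and COL18A1 by 1.03, with ratios of means of 3.01 and 2.16. Of the 15 collagens tested 11 rose and 3 fell, and 1 missed the threshold. Among all 12601 genes tested 36.6% rose and 30.3% fell. The median log2 difference was 0.65 for the 15 collagens and 0.02 for all genes tested. In this table COL6A6 and COL7A1 were above 1 FPKM only with LncND siRNA and were tested on account of that group, so the count over tested members leans upward. Over all 44 collagens, tested without the filter, 13 rose (29.5%) and 5 fell (11.4%), and their median was 0.00. Of all genes so tested 27.4% rose and 19.4% fell. In total 40.9% of the collagens were called, against 46.8% of all genes.

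Among the fibrillar chains, COL3A1 (hg19 chr2:189839099-189877472), the type III chain of distensible tissues, was the most abundant. It stood at 38.6, 40.4 and 38.7 FPKM with scrambled siRNA and 35.0, 38.1 and 39.6 with LncND siRNA. The groups overlapped, and the difference of -0.06 ± 0.05 (SE, n = 3 per group) on the log2 scale did not pass (limma adjusted p = 0.266). COL1A1 (chr17:48261457-48279000), the major chain of bone and skin collagen, stood at 4.14, 4.37 and 4.07 FPKM in the controls and 3.32, 3.45 and 3.31 with the siRNA. All treated libraries were below all controls, and COL1A1 fell (-0.25 ± 0.05, limma adjusted p = 0.000942).

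COL5A1 (chr9:137533652-137736688), whose product nucleates fibrils and limits their width, stood at 3.51, 3.60 and 3.35 FPKM in the controls and 5.52, 6.35 and 6.31 with the siRNA. It rose without overlap (0.65 ± 0.06, limma adjusted p = 4.56e-06). COL11A2 (chr6:33130469-33160245), a chain of the thin fibrils of cartilage, stood at 1.69, 1.44 and 1.46 FPKM and at 4.04, 4.18 and 3.91. The treated libraries were well above the controls (1.00 ± 0.06, limma adjusted p = 2.83e-07). The partner chains of COL1A1 and COL5A1 were under the filter: COL1A2 averaged 0.293 ± 0.037 FPKM (SD) in the controls and 0.180 ± 0.017 with the siRNA, and COL5A2 0.729 ± 0.034 and 0.483 ± 0.048. Tested without the filter both fell (limma adjusted p = 0.00566 for COL1A2 and 0.00186 for COL5A2). The ratio of COL5A1 to COL5A2 FPKM therefore lay between 4.58 and 5.14 in the control libraries and between 12.1 and 12.8 in the treated ones.

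The basement membrane pair is transcribed from a shared stretch of chromosome 13. In hg19, as the tables give it, COL4A1 (chr13:110801310-110959496) and COL4A2 (chr13:110959631-111165373) stand head to head with 134 bases between them. The stretch is shown because both genes moved in the same direction in each comparison below. It is the RefSeq promoter window of COL4A2 (GRCh38.p14, chr13:110307034-110307333, plus strand), in which the first base of COL4A1 is base 124, read from the other strand, and that of COL4A2 is base 251. Capitals mark a CCAAT and a GGGCGG, the letters of a CCAAT box and a GC box.
COL4A1-COL4A2: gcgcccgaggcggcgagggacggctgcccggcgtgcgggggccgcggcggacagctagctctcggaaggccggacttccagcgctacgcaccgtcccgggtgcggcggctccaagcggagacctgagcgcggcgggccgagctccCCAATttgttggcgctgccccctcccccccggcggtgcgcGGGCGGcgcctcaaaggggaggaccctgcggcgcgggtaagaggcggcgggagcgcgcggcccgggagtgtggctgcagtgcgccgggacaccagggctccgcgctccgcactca

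Both motifs lie between the starts of the genes. On either strand CCAAT occurs in 34.6% and GGGCGG in 45.0% of 35116 RefSeq promoter windows of this length, and in 14 and 24 of the 44 windows found for 32 of the collagen genes. COL4A1 stood at 16.3, 15.9 and 17.0 FPKM with scrambled siRNA and 12.4, 12.3 and 12.7 with LncND siRNA, without overlap, and fell (-0.37 ± 0.04, limma adjusted p = 1.51e-05). COL4A2 stood at 27.4, 27.9 and 28.5 FPKM and at 24.9, 26.5 and 25.9, also without overlap. It fell by less (-0.11 ± 0.04, limma adjusted p = 0.0227), a call that was lost without scrambled siRNA replicate 2 (-0.11, adjusted p = 0.0554) or replicate 3 (-0.10, adjusted p = 0.0868). The ratio of COL4A2 to COL4A1 FPKM was 1.68 to 1.75 in the control libraries and 2.01 to 2.15 in the treated ones.

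The type VI pair is also a neighbour pair, on chromosome 21, with 93069 bases and no other gene of the table between them. COL6A1 (hg19 chr21:47401663-47424963) stood at 21.5, 22.2 and 22.3 FPKM in the controls and 30.9, 34.0 and 32.6 with LncND siRNA. COL6A2 (chr21:47518033-47552763) stood at 38.1, 39.3 and 39.2 FPKM and at 62.2, 65.8 and 63.6. In both genes every treated library was above every control, and both rose, COL6A1 by 0.54 ± 0.04 (limma adjusted p = 2.05e-06) and COL6A2 by 0.70 ± 0.04 (limma adjusted p = 1.55e-07). COL6A6 (chr3:130279178-130395888), one of the longer alternative partner chains of type VI, stood at 0.471, 0.475 and 0.462 FPKM in the controls and 1.71, 2.28 and 2.34 with the siRNA. It rose by 1.08 ± 0.08 (limma adjusted p = 2.02e-06), with a ratio of means of 4.50, having passed the filter through the treated group alone. Tested without the filter it rose as well (limma adjusted p = 0.000157). The classical partner chain COL6A3 averaged 0.0471 ± 0.0112 FPKM and 0.0547 ± 0.0145, with overlapping libraries.

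In the FACIT class, whose products coat fibrils, the type IX chain COL9A2 (chr1:40766163-40782939) stood at 2.16, 2.22 and 2.26 FPKM in the controls and 5.34, 5.40 and 5.39 with the siRNA. It rose by 0.99 ± 0.05 (limma adjusted p = 7.55e-08), and its libraries were tight in both groups. COL9A3 (chr20:61448414-61472511), the second type IX chain, stood at 1.32, 1.13 and 1.45 FPKM and at 1.63, 1.68 and 1.66. Its smaller rise of 0.21 ± 0.07 (limma adjusted p = 0.0170) did not pass after quantile normalization (0.07, adjusted p = 0.374) or without scrambled siRNA replicate 2 (0.16, adjusted p = 0.0644). The remaining type IX chain, COL9A1, was under the filter, at 0.689 ± 0.011 FPKM (SD) and 0.669 ± 0.098, with overlapping libraries.

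COL16A1 (chr1:32117848-32169768), a FACIT of fibroblasts and smooth muscle, stood at 2.71, 2.66 and 2.65 FPKM in the controls and 3.02, 3.04 and 3.05 with LncND siRNA. The groups did not overlap and the gene rose by 0.14 ± 0.05 (limma adjusted p = 0.0258). This call was lost after quantile normalization (0.03, adjusted p = 0.616) and without either of LncND siRNA replicates 2 and 3 or scrambled siRNA replicates 2 and 3 (0.13 to 0.14, adjusted p = 0.0618 to 0.0655).

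COL18A1 (chr21:46825097-46933634), the endostatin precursor of basement membrane zones, stood at 8.45, 8.45 and 9.10 FPKM in the controls and 18.2, 19.2 and 18.8 with the siRNA. It rose by 1.03 ± 0.04 (limma adjusted p = 4.05e-08) with a wide gap between the groups. COL7A1 (chr3:48601506-48632593), the anchoring fibril chain of skin, stood at 0.812, 0.748 and 0.771 FPKM and at 2.18, 2.49 and 2.34, and rose by 0.91 ± 0.06 (limma adjusted p = 7.18e-07). COL26A1 (chr7:101006122-101202304), a little-studied collagen described in testis and ovary, stood at 1.17, 1.18 and 1.09 FPKM and at 2.57, 2.68 and 2.64. Its rise of 0.76 ± 0.05 (limma adjusted p = 1.09e-06) had no overlap either. Under the filter, COL2A1 (0.0313 ± 0.0070 to 0.0599 ± 0.0145 FPKM, SD) and COL19A1 (0.0683 ± 0.0203 to 0.111 ± 0.008) rose when tested without it (limma adjusted p = 0.0485 and 0.0312), both at levels that rest on few fragments. Among tested collagens 14 of 15 did not overlap between the groups, against 70.9% of all genes tested, and over all collagens 20 of 44 did not, against 54.5% of genes without the filter.

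For the mimic, the question is how the collagens stood in cells given miR-143-3p against the scrambled miRNA. Nearly all collagens above the filter were lower: COL16A1, COL26A1, COL5A1 and COL9A2 had control means of 2.71 to 4.65 times the treated means, and COL1A1 1.80 times. The type VI pair was the exception, with COL6A1 and COL6A2 at 1.33 and 1.52 times their control means. Of 14 collagens tested 2 rose and 12 fell, against 24.6% and 38.6% of the 12558 genes tested. The median log2 difference was -0.45 for the collagens and -0.06 for all genes tested. COL7A1 and COL9A3 were above 1 FPKM only in the controls and were tested on account of that group, so the count over tested members leans downward. Over all 44 collagens, tested without the filter, 5 rose (11.4%) and 18 fell (40.9%), and their median was -0.01. Of all genes so tested 15.6% rose and 24.8% fell. In total 52.3% of the collagens were called, against 40.5% of all genes.

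**Figure D2:**
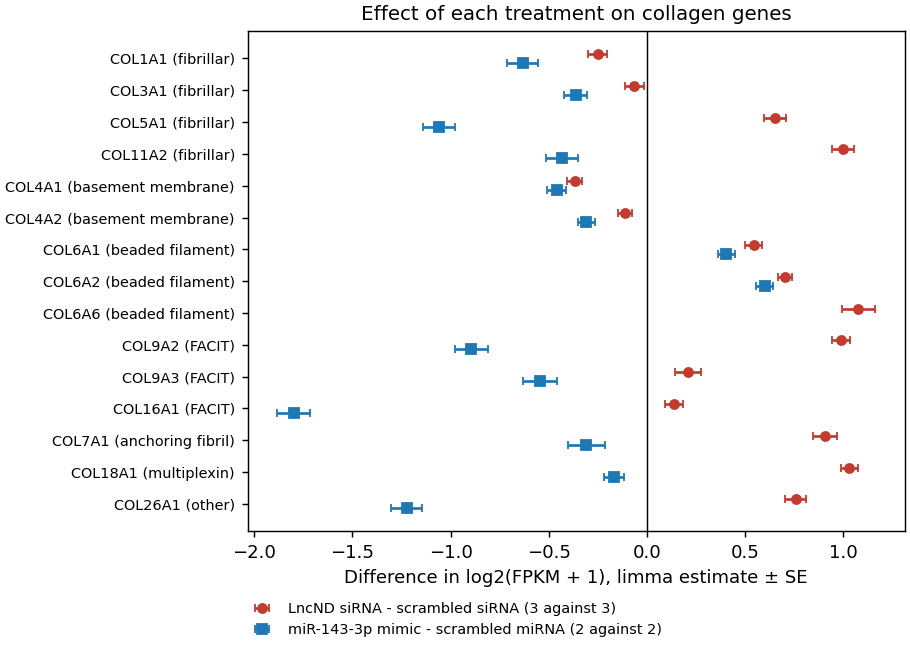
Difference in log2(FPKM + 1) of the tested collagens, limma estimate ± SE, with LncND siRNA against scrambled siRNA (red circles, n = 3 per group) and with the miR-143-3p mimic against scrambled miRNA (blue squares, n = 2 per group). COL6A1 and COL6A2 lie to the right of 0 in both comparisons, COL1A1, COL4A1 and COL4A2 to the left in both, and COL16A1, COL26A1, COL5A1 and COL9A2 on opposite sides.

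Of the fibrillar chains, COL5A1 stood at 3.27 and 3.18 FPKM with scrambled miRNA and 1.06 and 0.999 with the mimic. It fell by 1.06 ± 0.08 on the log2 scale (limma adjusted p = 3.88e-06, n = 2 per group). COL1A1 stood at 4.07 and 3.83 FPKM and at 2.33 and 2.06, and fell by 0.63 ± 0.08 (limma adjusted p = 8.84e-05). Both carry TCATCTC in the 3′ UTR, as shown above.

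COL3A1, which has no match there, stood at 35.8 and 35.4 FPKM in the controls and 29.2 and 25.8 with the mimic, and fell by 0.36 ± 0.06 (limma adjusted p = 0.000498). COL11A2, also without a match, stood at 2.69 and 2.82 FPKM and at 1.87 and 1.69 (-0.43 ± 0.08, limma adjusted p = 0.00113). In neither gene did the groups overlap. COL5A2, under the filter and with a TCATCTC of its own in the 3′ UTR, averaged 0.642 ± 0.022 FPKM (SD) and 0.711 ± 0.080 and did not pass without the filter (limma adjusted p = 0.435), and the ratio of COL5A1 to COL5A2 went from 4.98 to 5.07 in the control libraries to 1.30 to 1.62 in the treated ones.

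The basement membrane pair fell together. COL4A1 stood at 22.3 and 23.1 FPKM in the controls and 16.4 and 16.1 with the mimic (-0.46 ± 0.05, limma adjusted p = 3.07e-05). COL4A2 stood at 51.8 and 51.3 FPKM and at 42.5 and 40.4 (-0.31 ± 0.04, limma adjusted p = 0.000223). Again neither overlapped, and the ratio of COL4A2 to COL4A1 was higher in the treated libraries, 2.52 to 2.59 against 2.22 to 2.32.

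The type VI pair rose together. COL6A1 stood at 30.8 and 30.5 FPKM in the controls and 41.6 and 40.2 with the mimic (0.40 ± 0.04, limma adjusted p = 3.70e-05). COL6A2 stood at 47.5 and 48.6 FPKM and at 73.3 in both treated libraries (0.60 ± 0.04, limma adjusted p = 1.99e-06). The partner chains were at low levels. COL6A3 averaged 0.0343 ± 0.0105 FPKM (SD) with scrambled miRNA and 0.00804 ± 0.00159 with the mimic and did not pass without the filter (-0.04 ± 0.02, limma adjusted p = 0.190). COL6A6 averaged 0.0292 ± 0.0079 and 0.158 ± 0.030 and rose (0.17 ± 0.03, limma adjusted p = 0.0113).

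The FACIT gene COL16A1 had the largest fall among the tested collagens, from 9.94 and 9.47 FPKM with scrambled miRNA to 1.85 and 2.32 with the mimic (-1.80 ± 0.08, limma adjusted p = 2.00e-07). COL9A2 stood at 2.63 and 2.84 FPKM and at 1.03 and 0.982, and fell by 0.89 ± 0.08 (limma adjusted p = 1.42e-05). COL9A3 stood at 1.65 and 1.57 FPKM and at 0.776 and 0.799, and fell by 0.54 ± 0.09 (limma adjusted p = 0.000475). Within each of these genes both treated libraries were below both controls. Of the 3, only COL9A2 holds a seed match in the 3′ UTR searched.

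COL26A1 stood at 4.22 and 4.05 FPKM in the controls and 1.16 and 1.24 with the mimic, a fall of 1.22 ± 0.08 (limma adjusted p = 1.23e-06). COL18A1 stood at 15.9 and 15.7 FPKM and at 14.1 and 13.8. Its small fall of 0.17 ± 0.05 (limma adjusted p = 0.0156) did not pass after median-ratio scaling (-0.10, adjusted p = 0.107) or quantile normalization (-0.09, adjusted p = 0.161), nor without mimic replicate 2 (-0.15, adjusted p = 0.0545), scrambled miRNA replicate 1 (-0.16, adjusted p = 0.0935) or replicate 2 (-0.18, adjusted p = 0.0614). COL7A1 stood at 1.28 and 1.25 FPKM and at 0.906 and 0.759. It fell by 0.31 ± 0.09 (limma adjusted p = 0.0160), a call lost without mimic replicate 2 (-0.25, adjusted p = 0.0702). Among tested collagens 14 of 14 did not overlap between the groups, against 81.9% of all genes tested, and over all collagens 30 of 44 did not, near the 67.8% of genes without the filter.

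Seed matches and falls can be set side by side for the tested collagens. The 4 with TCATCTC in the 3′ UTR (COL1A1, COL5A1, COL9A2 and COL18A1) fell, with a median log2 difference of -0.76, and so did COL4A2 with CATCTCA alone. COL18A1 fell by only 0.17, and its call was lost under several alternatives, as given above. Among those with no match, the call of COL7A1 was lost as well. The other 7 collagens with TCATCTC were under the filter, and of these COL27A1 fell without the filter, as given below, while COL5A2 and the other 5 did not pass. Of the 9 with no match 7 fell and 2 rose, with a median of -0.43, and these include COL16A1 and COL26A1, which had the largest falls. Over all genes tested the median was -0.15 for the 1361 with TCATCTC, of which 50.0% fell, -0.10 for the 948 with CATCTCA alone, of which 44.4% fell, and -0.05 for the 8887 without a match, of which 37.0% fell. No test was made of these shares.

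Some collagens under the filter of 1 FPKM differed by large ratios at low levels with the mimic. COL17A1 (hg19 chr10:105791046-105845638), the transmembrane chain of epithelial hemidesmosomes, stood at 0.0743 and 0.0849 FPKM with scrambled miRNA and 0.899 and 0.841 with the mimic, 10.9 times the control mean. Without the filter it rose (0.79 ± 0.03, limma adjusted p = 0.000952). With LncND siRNA it averaged 0.0678 ± 0.0232 FPKM (SD) against 0.0757 ± 0.0106, with overlapping libraries. The 7 epithelial markers, whose sums are given above, were all under the filter in the miRNA table, and their part in this result was not tested.

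COL23A1, another transmembrane chain, stood at 0.320 and 0.400 FPKM in the controls and 0.843 and 0.945 with the mimic, and rose without the filter (0.48 ± 0.05, limma adjusted p = 0.00462). In the opposite direction, COL2A1, the cartilage fibril chain, stood at 0.294 and 0.275 FPKM and at 0.0194 and 0.0121, and fell (-0.34 ± 0.02, limma adjusted p = 0.00166). Both pairs of libraries were well apart. The FACIT chains COL9A1 (0.921 ± 0.168 to 0.481 ± 0.051 FPKM, SD) and COL19A1 (0.248 ± 0.003 to 0.112 ± 0.018) and the fibrillar COL27A1 (0.660 ± 0.088 to 0.373 ± 0.046) fell too (limma adjusted p = 0.0218, 0.00915 and 0.0209). So did COL1A2 (0.0933 ± 0.0082 to 0.0374 ± 0.0048 FPKM) and COL13A1 (0.124 ± 0.032 to 0.0331 ± 0.0151), at lower levels (limma adjusted p = 0.0389 and 0.0329). COL8A2, a short-chain network gene, averaged 0.555 ± 0.097 FPKM and 0.370 ± 0.008 and did not pass (limma adjusted p = 0.0584). These are differences on log2(FPKM + 1), which understates ratios most at such levels.

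The siRNA and the mimic effects share no control library, and their difference was fitted in 1 model of the 10 libraries. An offset between tables nearly drops out at high levels. At a few FPKM and below it does not, because the added 1 narrows ratios by an amount that depends on the level. Of the 14 collagens tested in both, 11 were called, all with a higher effect of LncND siRNA than of the mimic. Of all 12327 genes tested 60.2% were called, 38.1% with a higher and 22.0% with a lower siRNA effect. The median difference was 0.98 for the 14 collagens and 0.08 for all genes tested. COL7A1 was above 1 FPKM in 1 group of each table and COL9A3 in the miRNA table in the controls alone, so these counts too lean on the filter. Over all 44 collagens, tested without it, 18 had a higher (40.9%) and 3 a lower (6.8%) siRNA effect. Of all genes so tested 29.8% had a higher and 15.3% a lower one. In total 47.7% of the collagens and 45.1% of all genes were called, and the medians were 0.04 for both. The 18 include COL6A6 (0.91 ± 0.11, limma adjusted p = 0.000181). Its ratio of means was 4.50 with the siRNA and 5.39 with the mimic, so its call reflects its level in each table. The median of all genes moves to -0.04 with quantile normalization, so differences below about 0.1 are not read as directions.

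The widest differences were in genes that rose with the siRNA and fell with the mimic. They were COL26A1 (1.98 ± 0.08, limma adjusted p = 6.85e-10), COL16A1 (1.93 ± 0.09, 2.05e-09), COL9A2 (1.88 ± 0.08, 6.46e-10) and COL5A1 (1.71 ± 0.09, 5.67e-09). COL11A2 (1.43 ± 0.09), COL7A1 (1.22 ± 0.10), COL18A1 (1.20 ± 0.06) and COL9A3 (0.75 ± 0.10) belonged to the same 8 genes. For COL16A1 the parts were 0.14 with the siRNA and -1.80 with the mimic. As given above, some calls behind these opposite directions were lost under some alternatives. They were the siRNA rises of COL16A1 and COL9A3 and the mimic falls of COL18A1 and COL7A1.

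The basement membrane and type VI pairs differed least. COL4A1 (0.09 ± 0.06, limma adjusted p = 0.195), COL6A1 (0.14 ± 0.06, 0.0706) and COL6A2 (0.10 ± 0.05, 0.111) did not pass, which does not show that the treatments act alike on them. With quantile normalization the sign turned for COL4A1 (-0.00, adjusted p = 0.981) and COL6A2 (-0.03, adjusted p = 0.644), while without LncND siRNA replicate 1 COL6A1 (0.17, adjusted p = 0.0139) and COL6A2 (0.12, adjusted p = 0.0454) passed. COL1A1 (0.38 ± 0.08, limma adjusted p = 0.00138) passed. COL3A1 (0.30 ± 0.08, limma adjusted p = 0.00674) and COL4A2 (0.20 ± 0.06, 0.00976) passed but were lost with quantile normalization (0.17 with adjusted p = 0.105, and 0.08 with 0.289), COL4A2 also with median-ratio scaling (0.11, adjusted p = 0.132). Among collagens under the filter, COL17A1 (-0.80), COL23A1 (-0.49) and COL5A2 (-0.28) differed in the other direction when tested without it.

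Summed over classes, type VI was the class with the highest sum in all 4 groups. Total collagen FPKM averaged 174.8 with scrambled siRNA and 225.2 with LncND siRNA, and 237.8 with scrambled miRNA and 228.4 with the mimic. Type VI chains summed to 61.4 and 98.6 FPKM in the siRNA groups and 78.7 and 114.3 in the miRNA groups. Fibrillar chains stood at 50.0 and 52.3, and at 47.2 and 33.7, and basement membrane chains at 44.4 and 38.3, and at 74.3 and 57.7. The FACIT sum was 6.98 and 10.9 with the siRNA and 15.2 and 4.50 with the mimic. These sums are descriptions and were not tested.

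**Figure D3:**
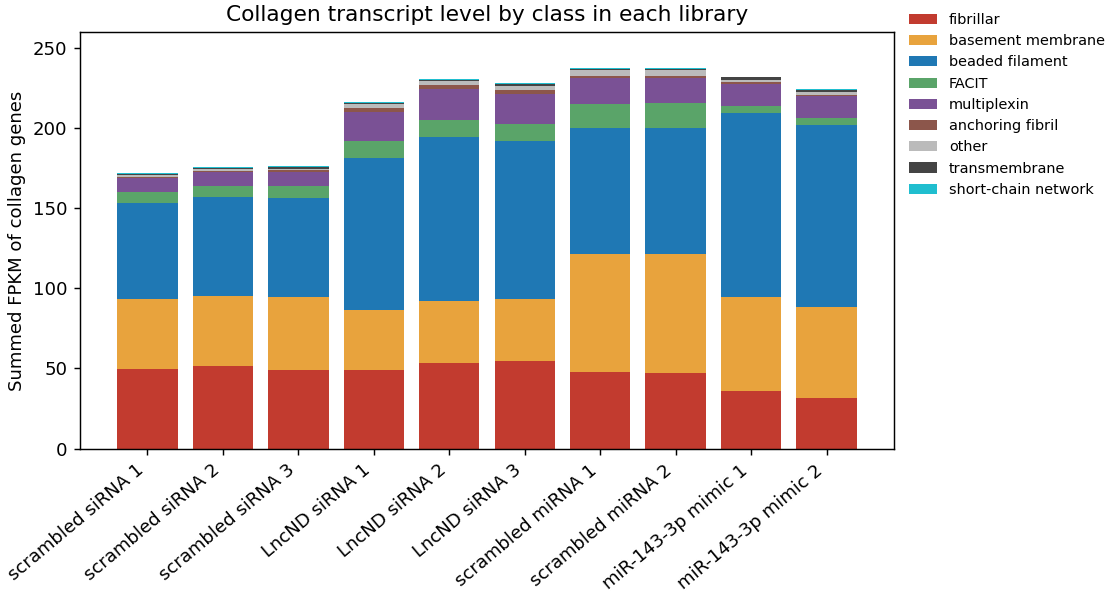
Summed FPKM of the collagen genes in each of the 10 libraries, one stacked bar per library, divided by class. Beaded filament (type VI) chains take a larger part of the treated libraries than of their controls. Within the siRNA table the bars are shorter with scrambled siRNA than with LncND siRNA, and bar heights are not compared between tables.

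Genes that act on collagens were read from lists of partner genes. Of 16 tested genes for modification and folding, 6 rose and 3 fell with LncND siRNA (median 0.05), and 1 rose and 13 fell with the mimic (median -0.29). For this and the lists below, 36.6% of all genes tested rose and 30.3% fell with the siRNA (median 0.02). With the mimic 24.6% rose and 38.6% fell (median -0.06). The siRNA rises of this list are near the share of all genes, and its siRNA falls are below theirs. SERPINH1, the collagen chaperone HSP47, fell in both, from 75.4 ± 0.7 FPKM (SD) to 53.7 ± 4.0 with the siRNA (-0.48 ± 0.05, limma adjusted p = 1.62e-05) and from 61.6 ± 0.4 to 43.9 ± 1.5 with the mimic (-0.48 ± 0.04, limma adjusted p = 1.19e-05). P4HA2, a prolyl hydroxylase chain, rose with the siRNA from 11.4 ± 0.6 to 20.5 ± 0.8 FPKM (0.80 ± 0.05, limma adjusted p = 2.64e-07). PPIB, the prolyl isomerase cyclophilin B, rose with the siRNA (0.21 ± 0.05, limma adjusted p = 0.00517) and fell with the mimic (-0.36 ± 0.04, limma adjusted p = 8.89e-05).

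For secretion, processing and crosslinking, 6 of 14 tested genes rose and 4 fell with the siRNA (median -0.06), and 2 rose and 8 fell with the mimic (median -0.26). Both siRNA counts of this list are near the shares of all genes. LOX, which crosslinks collagen outside the cell, fell in both, from 2.39 ± 0.28 to 1.14 ± 0.13 FPKM and from 4.15 ± 0.52 to 2.27 ± 0.07 (limma adjusted p = 2.91e-05 and 0.000136). Its relative LOXL2 rose with the mimic from 6.58 ± 0.12 to 15.4 ± 0.1 FPKM (1.12 ± 0.05, limma adjusted p = 2.65e-07). ADAMTS2, the protease that trims the N-terminal propeptide, rose in both (0.65 ± 0.06 and 0.52 ± 0.08, limma adjusted p = 8.60e-06 and 0.000356). PCOLCE, an enhancer of C-terminal trimming, rose with the siRNA from 308.6 ± 11.5 to 470.3 ± 15.5 FPKM (0.61 ± 0.05, limma adjusted p = 3.16e-06). Its relative PCOLCE2 fell with the mimic from 6.04 ± 0.52 to 1.93 ± 0.21 (-1.26 ± 0.08, limma adjusted p = 1.67e-06).

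**Figure D4:**
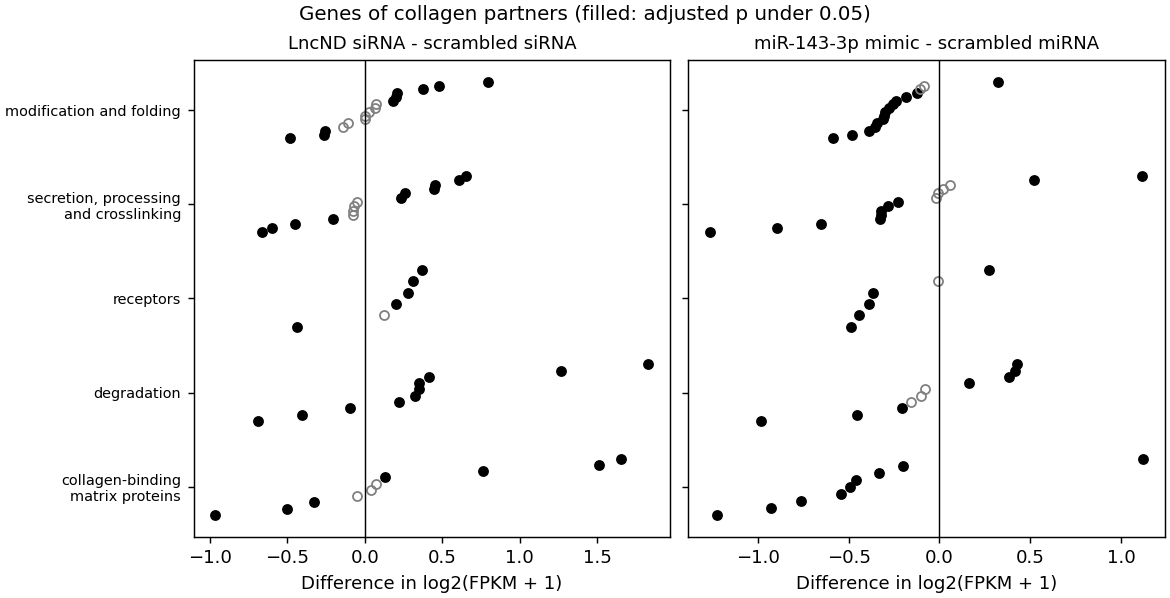
Difference in log2(FPKM + 1) of the tested partner genes in each of 5 lists, with LncND siRNA (left) and with the mimic (right), one circle per gene, spread vertically by rank and filled where the adjusted p was under 0.05. With the mimic most circles lie left of 0, and with the siRNA MMP15, DCN and TIMP1 lie far to the right, as does MATN2, which passed the filter only through its treated group.

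Receptors for collagen showed 4 of 6 tested genes rising and 1 falling with the siRNA (median 0.24), and 1 rising and 4 falling with the mimic (median -0.38), against the same shares of all genes. DDR2, a receptor kinase for fibrillar collagens, fell in both (-0.44 ± 0.09 and -0.48 ± 0.05, limma adjusted p = 0.00202 and 3.32e-05), and the integrin chain ITGA1 rose in both (0.31 ± 0.07 and 0.27 ± 0.05, limma adjusted p = 0.00232 and 0.000931). Of 10 tested genes for degradation, 7 rose and 3 fell with the siRNA (median 0.34), and 4 rose and 3 fell with the mimic (median -0.09, near that of all genes). MMP15, a membrane-bound metalloproteinase, rose with the siRNA from 3.34 ± 0.19 to 14.5 ± 0.8 FPKM (1.83 ± 0.05, limma adjusted p = 5.22e-09), as did the inhibitor TIMP1, from 10.9 ± 0.2 to 27.6 ± 1.9 (1.27 ± 0.05, limma adjusted p = 2.71e-08). MMP2, a gelatinase, fell with the mimic from 188 ± 5 to 94.6 ± 0.1 FPKM (-0.98 ± 0.04, limma adjusted p = 1.33e-07).

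Matrix proteins that bind collagen had 4 of 10 tested genes higher and 3 lower with the siRNA (median 0.06), and 1 higher and 8 lower of 9 with the mimic (median -0.49). The siRNA counts are near the 36.6% and 30.3% of all genes, and MATN2, 1 of the 4, was tested only because it was high with LncND siRNA (0.456 FPKM in the controls and 3.15 treated). DCN (decorin), a proteoglycan on fibrils, rose with the siRNA from 16.1 ± 1.1 to 53.0 ± 2.0 FPKM (1.66 ± 0.05, limma adjusted p = 7.83e-09), and FN1 (fibronectin) fell from 23.4 ± 0.5 to 11.5 ± 1.1 (-0.97 ± 0.06, limma adjusted p = 4.29e-07). NID1 (nidogen), which links type IV collagen to laminin, fell with the mimic from 51.2 ± 2.9 to 21.3 ± 1.2 FPKM (-1.23 ± 0.06, limma adjusted p = 1.86e-07). LUM (lumican), also a fibril proteoglycan and one of the fibroblast markers above, fell from 34.8 ± 0.7 to 17.8 ± 0.7 (-0.93 ± 0.05, limma adjusted p = 3.94e-07).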

How the data were processed

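The values are FPKM, a length- and depth-scaled score with no other unit, which the authors deposited in 2 tables. Per the submitters' processing notes, TopHat 1.0.0, Cufflinks and hg19 were used. Which annotation and strand setting went with them is not given in the sources used here, so reads of overlapping antisense genes cannot be told apart. In both tables, 1304 rows placed off the assembled chromosomes and 274 rows with too little data were dropped. The lowest value listed, 0.001, stands in place of 0. Groups come from the labels of the 10 libraries, and since these leave unsaid whether replicates were separate cultures, p-values cover the spread between libraries, possibly a technical one.

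Each table was tested alone with limma 3.58.1 in R 4.3.3 (lmFit, eBayes with a trend) on log2(FPKM + 1), for genes with a table mean of at least 1 FPKM, 2-sided, with Benjamini-Hochberg adjustment over all genes tested and a threshold of 0.05. The code was tested on simulated data. The difference of the 2 effects was fitted over all 10 libraries. Alternatives were a pseudocount of 0.1, a mean of 0.5 FPKM or no filter, median-ratio scaling, quantile normalization, summed rows, a replicate block, and leaving out each library. Every collagen is accounted for, those above 1 FPKM with values, and up to 4 partner genes per list, comparison and direction with the largest log2 difference could be named. The collagens, the partner lists and the marker lists were chosen with earlier results of these data known. Read counts were not used. From the steps between low FPKM values of 480 single-exon genes, depth was estimated at 28.8 to 49.4 M fragments for siRNA libraries and 14.1 to 41.0 M for miRNA libraries, so that a transcript of 5 kb at 1 FPKM would hold 70.4 to 246.9 fragments. Each depth estimate rested on 7 to 16 of the 480 genes and is rough, with 16.0 and 41.0 M for the 2 scrambled miRNA libraries. Depth estimates entered no test.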

Additional observations from a re-analysis of the deposited data

How the results depend on the processing

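For tested collagens, the results not named in the report or here as lost, gained or turned kept their direction and side of the threshold under every alternative run. Without the filter on low values, collagens that rose with LncND siRNA went from 11 to 13 and those that fell from 3 to 5. With the mimic those that rose went from 2 to 5 and those that fell from 12 to 18. Those with a higher or lower siRNA effect in the difference went from 11 to 18 and from 0 to 3. The shares of all genes so tested are given above. A mean of 0.5 FPKM gave 2 lower in the difference. The limma count of 0 at 1 FPKM is also 0 at an unadjusted p under 0.05, and more genes are tested under these alternatives. Quantile normalization moved all genes lower in the difference from 2717 to 4175, and turned COL4A1 to -0.001827 and COL6A2 to -0.03364; the cause was not tested.

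Leaving out 1 library gave 9 to 11 collagens up and 2 to 3 down with LncND siRNA, 2 up and 10 to 12 down with the mimic, and 11 to 13 up and 0 down in the difference. Over all genes the ranges were 4194 to 4635 up and 3400 to 3963 down, 2576 to 2862 up and 4197 to 4736 down, and 4260 to 4704 up and 2311 to 2829 down. In the mimic comparison the lone library left in an arm is assumed to vary like the others.

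Same-numbered siRNA libraries did not deviate together (correlations 0.07, 0.21 and -0.05), so the numbers were not taken as pairs. With the replicate block 10 collagens rose and 3 fell with LncND siRNA, COL16A1 being lost (adjusted p = 0.0594), and 2 rose and 12 fell with the mimic. Depth limits the genes below 0.1 FPKM, where a value rests on few fragments.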

Other observations

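Control levels of some collagens are set side by side here. The 2 tables may have been scaled separately, so no test was made and no difference is read from them. COL16A1 averaged 2.67 ± 0.03 FPKM (SD, n = 3) with scrambled siRNA and 9.70 ± 0.34 (n = 2) with scrambled miRNA. COL26A1 averaged 1.15 ± 0.05 and 4.14 ± 0.12 FPKM, COL4A2 28.0 ± 0.6 and 51.6 ± 0.4, and COL18A1 8.67 ± 0.37 and 15.8 ± 0.2. COL6A6 averaged 0.469 ± 0.006 and 0.0292 ± 0.0079 FPKM. The abundant COL3A1, at 39.2 ± 1.0 and 35.6 ± 0.3, and COL1A1, at 4.19 ± 0.16 and 3.95 ± 0.17, are given for comparison. With the mimic, COL16A1 and COL26A1 averaged 2.08 ± 0.33 and 1.20 ± 0.05 FPKM.

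Collagen transcripts were long and built of many exons. The median length of the transcript with the longest coding sequence was 6385.5 bases with 48 exons (3 to 118), against 2739 bases and 8 exons over all protein-coding genes (GENCODE 29), and their median GC content was 55.3% against 49.8%. COL4A4 and COL4A3, and COL4A6 and COL4A5, also stand head to head (5 and 369 bases apart in hg19), and in both of these pairs every library was at or below 0.0175 FPKM, unlike COL4A1 and COL4A2.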
